A study of Mus musculus with 30 samples.

Results

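The 8 genes described here encode sodium-calcium exchangers: Slc24a2, Slc24a3, Slc24a4 and Slc24a5 of the potassium-dependent family, Slc8a1, Slc8a2 and Slc8a3 of the potassium-independent family, and Slc8b1, the mitochondrial member. They were matched by gene identifier to their symbols, and all 8 were found among 55335 genes counted. Slc24a3 was chosen by its measured level, which in Control libraries was higher in D1 than in D2, and the other 7 by their family, so the Control class difference is given for all 8 genes as a description, without a test. The libraries came from the nucleus accumbens of female mice in which Cre recombinase turned on a tagged ribosomal protein (RiboTag, RT), so that RNA bound to ribosomes of the Cre-expressing cells could be pulled down with an antibody against the HA tag. D1-Cre-RT mice mark medium spiny neurons that express the D1 dopamine receptor, and A2A-Cre-RT mice mark those that express the adenosine A2A receptor together with the D2 dopamine receptor, called D2 here. Control mice of each genotype were compared with mice that had gone through chronic witness defeat stress (CWDS) and were classed by social interaction scores as Resilient or Susceptible. This gave 6 groups of 5 libraries, 30 in all. RNA of 4 mice was pooled for a library. Tissue came from 24 h after behavioural testing, and library preparation started from 10 ng of RNA. All groups, Control included, carry Cre and the tag. The age of the mice is not given in the sources used here.

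Sodium-calcium exchangers use the inward sodium gradient, kept up by the sodium pump, to carry calcium out of the cytosol, and the SLC24 proteins move potassium out together with calcium. In neurons the plasma membrane members clear the calcium that enters during firing, alongside the calcium pumps, and their direction can reverse when the gradient or the membrane potential changes. Slc8b1 encodes NCLX, which releases calcium from the mitochondrial matrix. Slc24a5 encodes an intracellular exchanger best known from pigment cells.

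The upstream sequences of Slc24a3 and Slc8a3, the plasma membrane members that were higher in D1 than in D2 libraries in both stressed groups, are shown first. They were taken from RefSeq promoter windows on GRCm38.p6, which held an entry for 7 of the 8 genes and none for Slc8b1. The window before a RefSeq start holds 250 bases. For Slc24a3 it is printed up to the start of the gene in GENCODE, which leaves 229 bases, chr2:145167525-145167753 on the plus strand. For Slc8a3 it is chr12:81333181-81333430 on the minus strand. Capitals mark matches, on either strand, to the GC box GGGCGG, the CRE motif TGACG or the TATA motif TATAAA, which share no match in these sequences.
Slc24a3: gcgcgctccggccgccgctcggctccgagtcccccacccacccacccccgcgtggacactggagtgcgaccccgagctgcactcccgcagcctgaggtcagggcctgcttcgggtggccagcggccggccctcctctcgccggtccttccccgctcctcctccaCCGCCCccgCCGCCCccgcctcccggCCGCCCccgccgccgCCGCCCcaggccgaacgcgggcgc
Slc8a3: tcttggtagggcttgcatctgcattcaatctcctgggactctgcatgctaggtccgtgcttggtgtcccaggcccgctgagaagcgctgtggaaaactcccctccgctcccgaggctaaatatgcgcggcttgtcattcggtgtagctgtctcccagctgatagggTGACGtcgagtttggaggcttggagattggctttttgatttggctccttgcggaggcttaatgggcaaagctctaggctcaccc
The window of Slc24a3 held 4 GC box matches and none of the other motifs. Its GC content of 80.8% was above that of 99.0% of the 32851 windows of this length, whose median was 52.4%. The window of Slc8a3 held 1 CRE motif and no GC box, at 56.0% GC. Across all windows, 32.7% held a GC box, 17.8% a CRE motif and 12.4% the TATA motif. Both sequences belong to the start nearest the GENCODE start. Slc24a3 has a further RefSeq start 74857 bases downstream of the GENCODE start, and counts per gene do not separate transcripts from the 2 starts.

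Gene counts per library ranged from 28996168 to 65882152. On average the class labels were borne out by marker genes. Over 15 libraries a class, Drd1 averaged 496 CPM in D1 and 105 CPM in D2, and Adora2a averaged 181 and 1189 CPM. The ranges of Drd1 overlapped, at 377 to 616 CPM in D1 and 50.3 to 414 CPM in D2 libraries. Those of Adora2a did not overlap. CPM are counts relative to library sizes scaled by the TMM method. A few libraries stood apart, and those referred to as the 4 are D1 Susceptible replicate 1, D2 Susceptible replicates 1 and 2 and D2 Resilient replicate 5. D1 Susceptible replicate 1 had 54.9% of its gene counts in the single feature Gm42418, against 5.46% in D1 Susceptible replicate 5 and at most 2.49% elsewhere, so its other genes rest on fewer reads (720 counts of Slc24a3). D2 Susceptible replicates 1 and 2 had 15822 and 16525 genes detected, against 19440 or more in the others, and 4 Y-linked genes summed to 8.83 and 1.03 CPM in them, against at most 0.261 CPM in the other 28 libraries, although all mice are labelled female. D2 Resilient replicate 5 had a summed level of 6 D1 class markers of 1715 CPM, against 254 to 1127 CPM in the other D2 libraries. That level was within the range of the D1 libraries, 1604 to 2407 CPM. Markers of other cells also differed by class. Summed endothelial markers were 14.9 to 40.6 CPM in D1 and 68.5 to 350 CPM in D2 libraries, astrocyte markers 56.9 to 260 and 108 to 326 CPM, mural markers 16.8 to 33.8 and 56.0 to 137 CPM, microglial markers 8.18 to 40.1 and 13.0 to 45.5 CPM, oligodendrocyte markers 383 to 998 and 433 to 1894 CPM, and interneuron markers 280 to 464 and 66.9 to 270 CPM. Each of these lists has 6 genes, and none of them was at 0 in all libraries of a group. Fewer cells of a type and less RNA per cell cannot be told apart in such libraries.

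Slc24a3, which encodes the potassium-dependent exchanger NCKX3 (ENSMUSG00000063873, chr2:145167754-145642166, plus strand, GRCm38), stood higher in every D1 library than in every D2 library. In D1 Control libraries it was 82.5, 93.0, 90.1, 84.5 and 80.1 CPM. In D2 Control libraries it was 43.1, 45.6, 44.8, 48.5 and 56.9 CPM. These Control groups, whose difference chose the gene, lay apart by 0.85 on the log2 scale (SE 0.109, no test). The stressed groups were not part of the Control contrast, but the members were chosen with earlier results of these data known. Tests of Slc24a3 in stressed libraries are therefore not blind to the choice. Resilient libraries were 81.7, 74.3, 91.0, 76.9 and 71.0 CPM in D1 and 38.9, 51.6, 47.6, 49.0 and 69.3 CPM in D2. The groups did not overlap, although D2 Resilient replicate 5 came close to the lowest D1 Resilient library. Slc24a3 was 1.54-fold higher in D1, a log2 difference of 0.62 with SE 0.108, at an adjusted p of 0.000186 (quasi-likelihood F test of edgeR). Susceptible libraries were 73.1, 69.4, 76.2, 69.7 and 78.7 CPM in D1 and 37.6, 46.3, 37.4, 45.3 and 37.0 CPM in D2. Here all D1 libraries were far above all D2 libraries, by 1.80-fold (log2 difference 0.85, SE 0.109; adjusted p 2.30e-06 with edgeR).

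**Figure D1:**
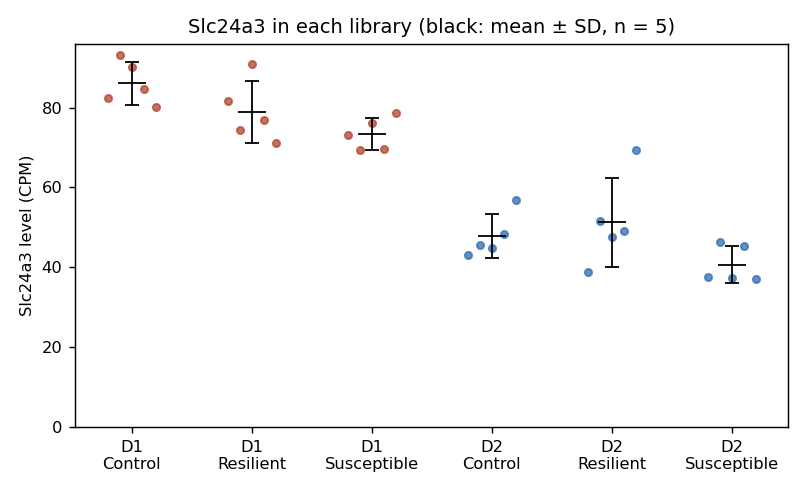
Slc24a3 level (CPM, vertical axis) in each of 30 libraries by group (horizontal axis); points are libraries, red for D1 and blue for D2, and black marks give the mean ± SD of 5. The 15 D1 libraries lie between 69.4 and 93.0 CPM and the 15 D2 libraries between 37.0 and 69.3 CPM.

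The D2 libraries with most Slc24a3 were also those with most D1 marker RNA. D2 Resilient replicate 5, at 69.3 CPM of Slc24a3, had the highest summed D1 class markers of the D2 libraries (1715 CPM), and D2 Control replicate 5, at 56.9 CPM, had the next highest (1127 CPM). Their D2 class markers were the lowest of the D2 libraries, 4867 and 7287 CPM, and their interneuron marker sums the highest, 194 and 270 CPM. The part of this in the class difference was not tested. The Resilient difference was larger without D2 Resilient replicate 5 (log2 difference 0.77, SE 0.0993, adjusted p 2.00e-06 with edgeR). Interneuron markers were higher in D1 libraries, 280 to 464 CPM against 66.9 to 270 CPM. Their part in the class differences of Slc24a3 and Slc8a3 was not tested. In the plot of Slc24a3 against D1 markers, D2 Control replicate 5 lies between the main bodies of D1 and D2 points. D2 Resilient replicate 5 lies within the D1 range of markers, 1604 to 2407 CPM, and just below the lowest D1 library in Slc24a3.

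**Figure D2:**
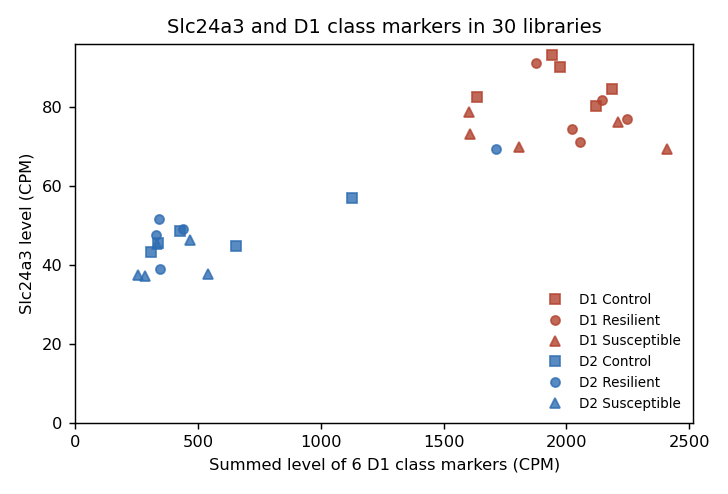
Slc24a3 level (CPM, vertical axis) against the summed level of 6 D1 class markers (CPM, horizontal axis) in 30 libraries; colour gives the class and shape the stress group. D2 Resilient replicate 5 (1715 CPM of markers, 69.3 CPM of Slc24a3) and D2 Control replicate 5 (1127 and 56.9 CPM) lie nearest the D1 libraries.

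Of the 8 exchangers, 3 differed between D1 and D2 in Resilient libraries at an edgeR adjusted p under 0.05, where 6.65% of the 19368 genes tested did. Higher in D1 were 2 of the 8 (Slc24a3 and Slc8a3), against 2.75% of all genes, and 1 was higher in D2 (Slc8b1), against 3.9%. In Susceptible libraries 5 of the 8 differed, where 23.9% of all genes did. Higher in D1 were 4 (Slc24a2, Slc24a3, Slc24a4 and Slc8a3), against 10.5% of all genes, and 1 was higher in D2 (Slc8b1), against 13.4%. The Susceptible count was 2 without the 4 libraries that stood apart, leaving Slc24a3 and Slc8a3, where 2163 of 20339 genes were called. The members were chosen with earlier results of these data known, and Slc24a3 by its higher D1 level in Control libraries. These counts are therefore not those of an unselected set, and no conclusion is drawn from setting them beside the shares. All 8 passed the filter on low counts.

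**Figure D3:**
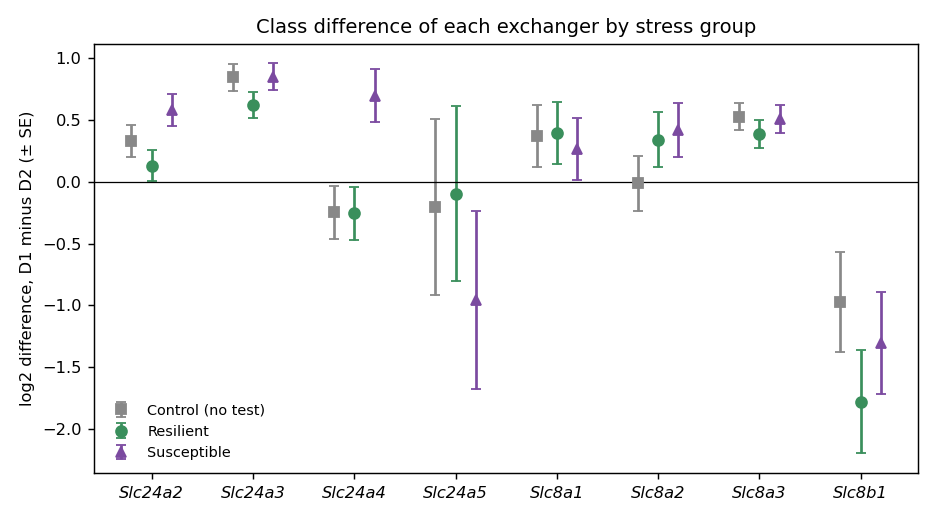
Log2 difference between D1 and D2 (vertical axis, D1 minus D2, ± SE) of each exchanger (horizontal axis) in Control (grey squares, no test), Resilient (green circles) and Susceptible libraries (purple triangles). Slc24a2, Slc24a3, Slc8a1 and Slc8a3 lie above 0 and Slc24a5 and Slc8b1 below 0 in all 3. Slc24a4 lies at -0.25 in Control and Resilient and at 0.70 in Susceptible libraries.

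Slc8a3, encoding NCX3 (ENSMUSG00000079055, chr12:81197915-81333180, minus strand), was the other plasma membrane exchanger that was higher in D1 in both stressed groups, at a smaller ratio. Control libraries were 40.2, 43.0, 36.2, 38.9 and 37.7 CPM in D1 and 32.5, 27.5, 29.7, 18.3 and 27.7 CPM in D2. They lay apart, by a log2 difference of 0.53 (SE 0.113, no test). Resilient libraries were 38.8, 39.8, 37.4, 39.3 and 32.0 CPM in D1 and 28.1, 26.0, 28.2, 27.7 and 33.0 CPM in D2. These overlapped in 1 library of each class, D1 Resilient replicate 5 and D2 Resilient replicate 5 (log2 difference 0.39, SE 0.113; adjusted p 0.0286 with edgeR). That call was lost without any of D1 Resilient replicates 1, 2 and 4 or D2 Resilient replicates 1, 2, 3 and 4, with adjusted p from 0.0517 to 0.0703 at log2 differences of 0.38 to 0.40. Susceptible libraries were 46.6, 38.6, 41.6, 38.7 and 37.7 CPM in D1 and 23.4, 29.3, 32.3, 26.6 and 30.7 CPM in D2. They were apart, by 1.42-fold (log2 difference 0.51, SE 0.113; adjusted p 0.00173 with edgeR).

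Slc8b1, the mitochondrial exchanger (ENSMUSG00000032754, chr5:120511168-120534024, plus strand), went the other way and was higher in D2. It was a low gene, with 13 to 210 counts in a library. Resilient libraries were 0.600, 0.271, 0.434, 0.708 and 0.776 CPM in D1 and 2.02, 2.26, 2.17, 2.28 and 0.885 CPM in D2. They did not overlap, with D2 Resilient replicate 5 again nearest to D1 (log2 difference -1.78, SE 0.418; adjusted p 0.00540 with edgeR). Susceptible libraries were 1.32, 0.532, 0.590, 1.11 and 1.16 CPM in D1 and 3.39, 1.83, 1.82, 2.56 and 1.84 CPM in D2. They were also apart (log2 difference -1.30, SE 0.416; adjusted p 0.0223 with edgeR). The Susceptible call was lost without D1 Susceptible replicate 2 (log2 difference -1.12, adjusted p 0.0713), D1 Susceptible replicate 3 (-1.15, 0.0671) or D2 Susceptible replicate 1 (-1.10, 0.0626). In Control libraries the groups overlapped, at 0.573 to 1.98 CPM in D1 and 1.26 to 3.84 CPM in D2 (log2 difference -0.97, SE 0.407, no test). The 1.98 CPM came from D1 Control replicate 1, which had the highest astrocyte, microglial and oligodendrocyte marker sums of the D1 libraries (260, 40.1 and 998 CPM). The other D1 Control libraries, at most 1.16 CPM, lay below all D2 Control libraries. Endothelial, astrocyte and mural markers were higher in D2 libraries as well, in the ranges given above, and their part in the difference of Slc8b1 was not tested.

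**Figure D4:**
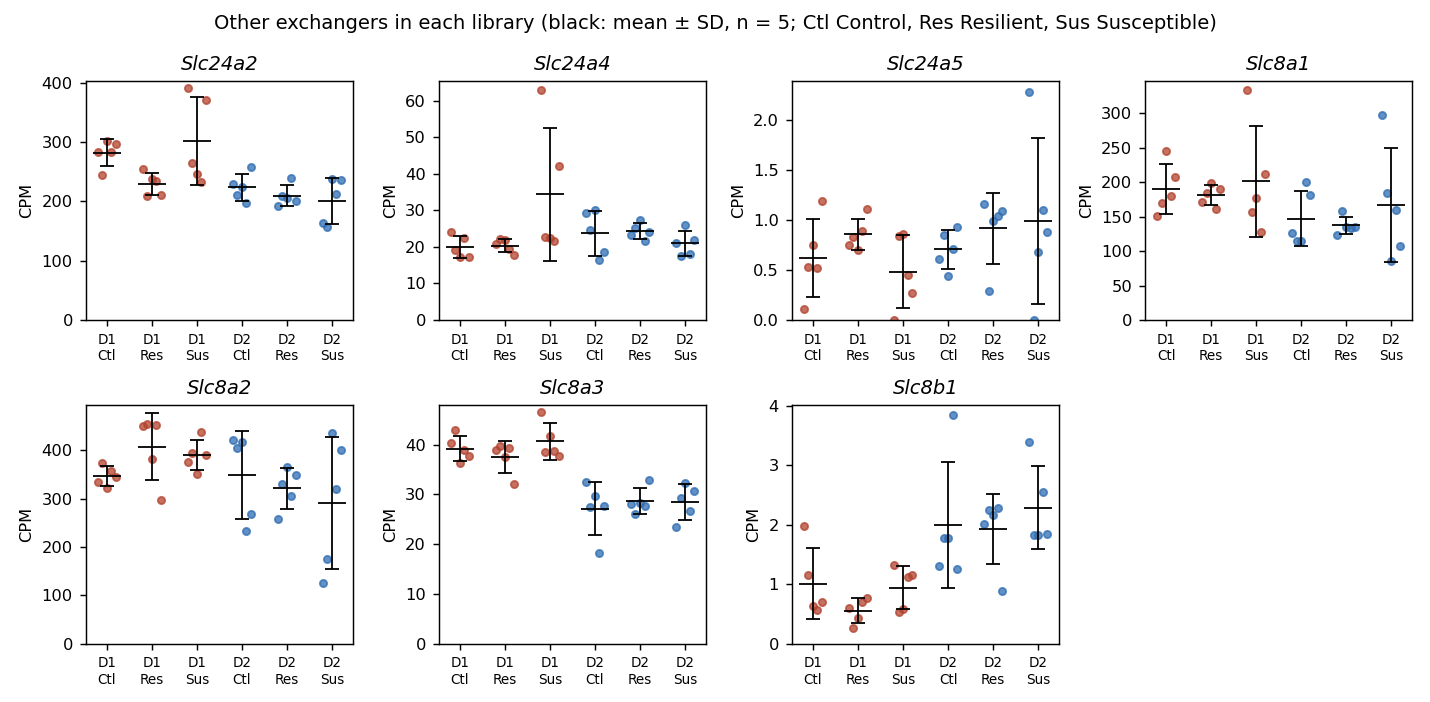
Level (CPM, vertical axes that start at 0) of the 7 other exchangers in each library by class and stress group; points are libraries and black marks the mean ± SD of 5. Slc8a3 is higher and Slc8b1 lower in most D1 libraries, and the high points of Slc24a2 and Slc24a4 in D1 Susceptible are replicates 1 and 5.

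Slc24a2 and Slc24a4, which encode the potassium-dependent exchangers NCKX2 and NCKX4, were called higher in D1 in Susceptible libraries, and in both D1 Susceptible replicates 1 and 5 were the highest libraries. Slc24a2 (ENSMUSG00000037996, chr4:86983124-87230477, minus strand) was 391, 264, 247, 233 and 371 CPM in D1 Susceptible and 163, 156, 237, 212 and 236 CPM in D2 Susceptible libraries. The groups overlapped at the bottom of D1 and the top of D2 (log2 difference 0.58, SE 0.127; adjusted p 0.00155 with edgeR). Without the 4 libraries that stood apart the difference was 0.29 (adjusted p 0.122). In Resilient libraries Slc24a2 was 208 to 254 CPM in D1 and 193 to 239 CPM in D2. The log2 difference was 0.13 (SE 0.127; adjusted p 0.809 with edgeR). In Control libraries it was 244 to 302 and 198 to 257 CPM.

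Slc24a4 (ENSMUSG00000041771, chr12:102128733-102267091, plus strand) was 63.0, 22.6, 22.4, 21.6 and 42.2 CPM in D1 Susceptible libraries and 21.2, 17.6, 26.0, 18.1 and 21.8 CPM in D2 Susceptible libraries. Apart from the first and last D1 libraries the values were alike (log2 difference 0.70, SE 0.215; adjusted p 0.0183 with edgeR). The call was lost without D1 Susceptible replicate 1 (log2 difference 0.38, adjusted p 0.130), the library with 54.9% of its counts in Gm42418. The other high library, replicate 5, had the next highest share of that feature among D1 libraries, 5.46%. In the other groups D1 was not above D2: the log2 difference was -0.25 in Resilient libraries (SE 0.214; adjusted p 0.743 with edgeR) and -0.25 in Control libraries (SE 0.213, no test).

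Slc8a1 and Slc8a2, which encode NCX1 and NCX2, showed no class difference past the threshold in either stressed group. Slc8a1 (ENSMUSG00000054640, chr17:81373105-81738377, minus strand) was 172, 184, 199, 162 and 190 CPM in D1 Resilient and 124, 159, 136, 134 and 136 CPM in D2 Resilient libraries. These groups were apart, yet the difference did not pass (log2 difference 0.40, SE 0.2497; adjusted p 0.547 with edgeR). A fit of only the Resilient groups called the gene (log2 difference 0.39, adjusted p 0.00226). In Susceptible libraries it was 335, 157, 177, 127 and 212 CPM in D1 and 298, 184, 85.9, 159 and 108 CPM in D2 (log2 difference 0.27, SE 0.2498; adjusted p 0.462 with edgeR). The highest library of each class was one that stood apart, and the difference moved with them. It was 0.79 without D2 Susceptible replicates 1 and 2 (adjusted p 0.0432), 0.01 without D1 Susceptible replicate 1 (adjusted p 0.980) and 0.52 without all 4 libraries that stood apart (adjusted p 0.135).

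Slc8a2 (ENSMUSG00000030376, chr7:16129826-16161063, plus strand) was 297 to 455 CPM in D1 Resilient and 257 to 365 CPM in D2 Resilient libraries (log2 difference 0.34, SE 0.222; adjusted p 0.575 with edgeR). In D2 Susceptible libraries it was 125, 175, 436, 320 and 400 CPM, against 352 to 437 CPM in D1 Susceptible libraries. Replicates 1 and 2, the libraries with fewest genes detected, were the low ones (log2 difference 0.42, SE 0.222; adjusted p 0.171 with edgeR). Without those 2 libraries the difference was 0.04 (adjusted p 0.922), and without D2 Susceptible replicate 3, the highest, it was 0.63 (adjusted p 0.0312). Over the 15 D2 libraries the log2 levels of Slc8a1 and Slc8a2 moved against each other (Pearson r -0.88), and over the 15 D1 libraries less so (-0.32). These points share libraries and their depth, and are given as a description.

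Slc24a5 (ENSMUSG00000035183, chr2:125068124-125088677, plus strand) was near the limit of detection. It had 0 counts in D1 Susceptible replicate 1 and in D2 Susceptible replicate 2, which allows up to 0.304 and 0.0543 CPM at 3 counts, and 7 to 106 counts in the other 28 libraries. It was 0 to 1.19 CPM in D1 and 0 to 2.28 CPM in D2 libraries, with no class difference past the threshold (edgeR adjusted p 0.992 in Resilient and 0.355 in Susceptible libraries). Its exons share 921 bases with Myef2 on the opposite strand, and the strand setting of the counting is not given in the sources used here, so its counts are uncertain.

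Per exon length, Slc8a2 was the most abundant exchanger and the 2 weakest were Slc8b1 and Slc24a5. Levels between genes are given as RPKM, the CPM per 1000 bases of merged GENCODE exons. Over 15 libraries a class, Slc8a2 was 72.5 ± 9.46 RPKM in D1 and 60.95 ± 17.8 in D2, and Slc24a2 was 22.2 ± 4.34 and 17.3 ± 2.26 RPKM. Slc24a3 came next in all 6 groups, at 17.4 ± 1.68 RPKM in D1 and 10.2 ± 1.84 in D2. Slc8a1 followed at 10.2 ± 2.59 and 8.01 ± 2.73 RPKM, and its libraries overlapped those of Slc24a3 in both classes, as those of Slc24a3 overlapped Slc24a2. Slc8a3 was 7.33 ± 0.604 and 5.26 ± 0.706 RPKM, and Slc24a4 was 5.51 ± 2.67 and 5.08 ± 0.932 RPKM. The ranges of Slc8a3 and Slc24a4 overlapped in D2 and in D1 Susceptible libraries, where Slc24a4 reached 13.9 RPKM in replicate 1. They were apart in D1 Control libraries (6.79 to 8.06 RPKM for Slc8a3, 3.82 to 5.32 for Slc24a4) and in D1 Resilient libraries (6.01 to 7.46 and 3.95 to 4.90 RPKM). Slc8b1 averaged 0.242 RPKM in D1 and 0.597 in D2, and Slc24a5 averaged 0.281 and 0.374 RPKM. The ranges of these genes overlapped in both classes, and Slc8b1 had the higher mean in each D2 group.

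**Figure D5:**
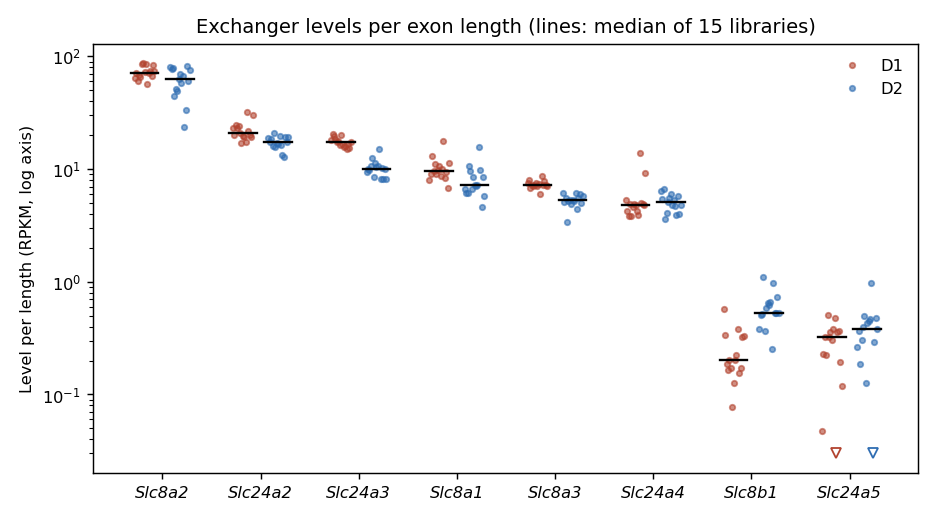
Level per length (RPKM, vertical log axis) of the 8 exchangers (horizontal axis) in 15 D1 libraries (red) and 15 D2 libraries (blue); lines are medians, and the 2 open triangles stand for libraries with 0 counts, drawn below the lowest value. Slc8a2 is highest in both classes, and among the upper 4 only the D1 points of Slc24a3 all lie above its D2 points.

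On average Slc24a3 made up more of the summed level of Slc24a2, Slc24a3 and Slc24a4 in D1 than in D2. The Control shares are only a description, because the Control levels of Slc24a3 chose it. Among Slc24a2, Slc24a3 and Slc24a4 by RPKM, Control libraries of D1 gave it a share of 40.7% ± 2.96 (SD, n = 5), Resilient ones 42.6% ± 1.45 and Susceptible ones 34.3% ± 6.03. In D2 libraries it was 30.8% ± 3.23, 33.0% ± 4.76 and 30.1% ± 5.45. The Susceptible ranges overlapped (25.8% to 39.9% in D1, 24.6% to 37.8% in D2). Slc24a2 and Slc24a4, the other genes in this total, were highest in D1 Susceptible replicates 1 and 5. Slc8a2 held 79.0% to 82.8% of the Slc8a1, Slc8a2 and Slc8a3 total in 5 groups on average, and 76.0% ± 14.6 in D2 Susceptible libraries. Among the latter its level was lowest in replicates 1 and 2.

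Stress groups were then compared within each class, to ask whether any exchanger changed with CWDS outcome. These comparisons share the Control or the Resilient libraries. With edgeR, 0 of the 8 genes passed in any of the 6. In D1, 0.0% of genes tested passed between Resilient and Control, between Susceptible and Control and between Susceptible and Resilient libraries. In D2, 0.0% passed between Resilient and Control, 0.00516% between Susceptible and Control and 0.0516% between Susceptible and Resilient. DESeq2 also called 0 of the 8 in each, and voom called 1, Slc24a2 in D1 Resilient against Control (log2 difference -0.30, adjusted p 0.0497, against an edgeR adjusted p of 1). In that comparison voom called 180 of 19368 genes. Over all genes the count with an unadjusted p under 0.05 was 503, 465 and 675 in D1 and 814, 3038 and 3693 in D2, in that order of comparisons. Over all genes the D2 Susceptible comparisons with Control and with Resilient moved with their libraries. Their edgeR calls, 1 and 10, were 828 and 1964 without D2 Susceptible replicate 3, 11 and 412 without replicate 4, and 170 and 1607 without replicate 5. They were 0 and 0 without replicates 1 and 2, with 1144 and 1113 genes at an unadjusted p under 0.05, and DESeq2 called 255 and 976.

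The mean of Slc24a3 was 86.0 ± 5.37 CPM (SD, n = 5) for D1 Control, 79.0 ± 7.75 CPM for D1 Resilient and 73.4 ± 4.05 CPM for D1 Susceptible libraries. The D1 Susceptible libraries, at most 78.7 CPM, lay below the D1 Control libraries, at least 80.1 CPM. The log2 difference was -0.23 (SE 0.108), and edgeR did not call it. This comparison is a description, since the Control levels chose the gene. In D2 it averaged 47.8 ± 5.47, 51.3 ± 11.1 and 40.7 ± 4.65 CPM. The difference between D2 Susceptible and D2 Resilient libraries was -0.33 (SE 0.108; adjusted p 0.1001 with edgeR), and -0.20 without D2 Resilient replicate 5 (adjusted p 0.318). Slc24a4 had the largest D1 Susceptible difference from Control among the members on the log2 scale, 0.76 (SE 0.215, adjusted p 1 with edgeR), and it was 0.45 without D1 Susceptible replicate 1. Slc8a3 moved by at most 0.11 on the log2 scale between any stress groups of either class.

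The class difference itself was compared between stress groups by the difference of the D1 and D2 changes. With edgeR, 0 of the 8 genes and 0.0% of all genes passed for Resilient against Control, for Susceptible against Control and for Susceptible against Resilient. DESeq2 and voom also called 0 of the 8. Of 19368 genes, DESeq2 called 7, 5 and 47 in that order, and voom called 160, 0 and 0. Over all genes, 967, 1509 and 2404 had an unadjusted p under 0.05 with edgeR. For Slc24a3 the differences were -0.22 (SE 0.153), 0.00 (SE 0.152) and 0.23 (SE 0.153), with edgeR adjusted p of 1.00, 0.998 and 0.563. Without D2 Resilient replicate 5 the first was -0.09 and the third 0.10. Those with Control use the contrast on which the gene was picked. For Slc24a4 they were -0.01 (SE 0.302), 0.95 (SE 0.303) and 0.95 (SE 0.303), with edgeR adjusted p of 1.00, 0.637 and 0.258.

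The genes whose levels were most like that of Slc24a3 were Adcy2, Dner, Grin3a, Kcnc2 and Disp2, with Pearson r of 0.962, 0.952, 0.951, 0.948 and 0.946 over the log2 levels of 30 libraries, among 8867 genes. Adcy2 encodes an adenylyl cyclase, Grin3a a subunit of NMDA receptors and Kcnc2 a voltage-gated potassium channel. All 5 averaged higher in D1, which follows from picking them by likeness to Slc24a3 over both classes. For example, Adcy2 was at 59.4 CPM in D1 against 24.2 CPM in D2 and Kcnc2 at 52.5 against 12.6 CPM. Within the classes r was lower, 0.49 to 0.74 over 15 D1 libraries and 0.72 to 0.88 over 15 D2 libraries. The D2 libraries include D2 Resilient replicate 5 and D2 Control replicate 5, which had most Slc24a3 and most D1 marker RNA among them. Their part in r was not tested. Of the 5 genes, only Grin3a was among the 5 most like Slc24a3 within D1, and only Adcy2 within D2. The likeness of Slc24a3 and Slc8a3 was also weaker within the classes, with r of 0.75 over 30 libraries and of 0.06 and 0.03 within D1 and D2.

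Other genes that move calcium or keep the sodium gradient differed in both directions. Beside their counts stand the shares over all genes, 2.75% higher and 3.9% lower in D1 in Resilient libraries and 10.5% higher and 13.4% lower in Susceptible libraries. Of 18 other calcium pumps and organelle transporters tested, 1 was higher and 1 lower in D1 in Resilient libraries, and 4 were higher and 5 lower in Susceptible libraries. Their median log2 difference was -0.02 and 0.19, against -0.00 and 0.02 over all genes. Atp2b4, a plasma membrane calcium pump, passed in both groups, at 259 ± 32.8 CPM in D1 against 183 ± 19.7 in D2 Resilient libraries and 265 ± 41.7 against 154 ± 14.3 in Susceptible libraries (log2 differences 0.50 and 0.78, edgeR adjusted p 0.00176 and 5.87e-06). Atp2a3, a calcium pump of the endoplasmic reticulum, was lower in D1 in both (log2 differences -2.50 and -2.11, edgeR adjusted p 3.27e-05 and 0.000193), at 0.954 and 1.59 CPM in D1 and 5.42 and 6.62 CPM in D2.

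Against the same shares over all genes (6.65% called in Resilient and 23.9% in Susceptible libraries), of 11 genes of calcium store release and store-operated entry, 0 were higher and 1 lower in D1 in Resilient libraries, and 1 was higher and 3 lower in Susceptible libraries (median -0.07 and 0.04). Itpr2, an inositol trisphosphate receptor, was lower in D1 in both (log2 differences -1.19 and -1.59). Endothelial markers were lower in D1 as well (14.9 to 40.6 CPM against 68.5 to 350 CPM), as were mural markers, and their part in the differences of Itpr2 and Atp2a3 was not tested. Of 10 calcium-binding proteins, 4 were higher and 1 lower in D1 in each stressed group (median 0.22 and 0.32). Ncald, a neuronal calcium sensor, had log2 differences of 1.12 and 1.33, and Necab1 had differences of -0.63 and -0.52. Pvalb, among the 4, is also on the interneuron list, whose summed level was higher in D1 libraries.

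Of 10 genes of the sodium pump and its regulators, where 6.65% and 23.9% of all genes were called, 2 were higher and 2 lower in D1 in Resilient libraries, and 5 were higher and 3 lower in Susceptible libraries (median -0.02 and 0.12). Fxyd6 and Fxyd7, regulators of the pump, were higher in D1 in both, by log2 differences of 1.11 and 1.08 for Fxyd6 and of 1.11 and 1.25 for Fxyd7. Fxyd1, a further regulator of the pump, was lower in D1 in both, with log2 differences of -1.17 and -1.72. Astrocyte markers were lower in D1 libraries too, 56.9 to 260 CPM against 108 to 326 CPM, and their part in the differences of this list was not tested. With edgeR, 0 genes of these lists passed in any stress comparison or difference of changes.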

How the data were processed

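The deposited files hold raw read counts per gene for 30 libraries, made by the authors with HISAT2 and HTSeq on GRCm38/mm10, per the submitters' processing notes. Their versions and annotation, and the strand setting, were not given in the sources used here. Lines of unassigned reads, 10.1% to 53.3% of a library, stayed out of library sizes and tests. Symbols, coordinates and exon lengths came from GENCODE M21. Genes passed filterByExpr (minimum count 10, minimum total 15), leaving 19368. Counts were scaled by TMM and tested by the quasi-likelihood F test of edgeR 4.0.16 in R 4.3.3, in 1 model of 6 groups, with Benjamini-Hochberg adjustment over all genes and a threshold of 0.05. Alternatives used DESeq2 1.42.0, voom (limma 3.58.1), no filter, only the groups compared, a replicate block, and fewer libraries. The members and lists were chosen with earlier results of these data known. Named genes were all members, the 5 most like Slc24a3 (mean of at least 10 CPM), and up to 2 genes a list and direction that passed in both stressed groups, of which 1 is not reported here. For likeness, CPM were put on a log2 scale after adding a prior count (2). Of 6 D2 class markers 5 were used, and 1 was not analysed here. Libraries carry no molecular identifiers, so the floor of 3 counts covers counting error only. Figures used matplotlib 3.10.9.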

Additional observations from a re-analysis of the deposited data

Results flagged for a closer look

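In 3 of 48 groups of 5 libraries (8 genes in 6 groups) 1 library lay far from the other 4, with a gap of more than 0.71 of the group's range, and chance alone gives this in about 1 of 20 groups. Slc24a5 was 0.293 CPM in D2 Resilient replicate 2 and 0.994 to 1.16 CPM in the others. Slc8b1 was 3.84 CPM in D2 Control replicate 4 and 1.26 to 1.78 CPM in the others. Slc8b1 was 0.885 CPM in D2 Resilient replicate 5, the D2 library with most D1 marker RNA, and 2.02 to 2.28 CPM in the others. Both genes are at low counts.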

How the results depend on the processing

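Slc24a3 was called higher in D1 under all 17 alternatives in Resilient libraries (log2 difference 0.54 to 0.77) and all 18 in Susceptible libraries (0.84 to 0.92), Slc8a3 under 10 of 17 and all 18, and Slc8b1 higher in D2 under all 17 and 12 of 18. Of 1768 values of single members under alternatives, 0 called values turned direction, 21 calls were lost, 6 were gained, and 133 uncalled values changed sign. The count of members called in Susceptible libraries was 5, and it was 2 with only the groups compared and 2 without the 4 libraries that stood apart. In D1 Resilient against Control it was 0, and 1 under voom, which called 180 of 19368 genes there. Leaving out 1 library at a time gave 2 to 3 members in Resilient libraries. Those Resilient fits called 960 of 19769 to 1453 of 19809 genes. Susceptible fits without 1 D1 library gave 4 to 5 members and called 3867 of 19844 to 4108 of 19853 genes. Without D2 Susceptible replicate 3, Slc8a2 was called as well. Slc24a2 was not called in Susceptible libraries under voom (0.25) or with only the groups compared (0.59, adjusted p 0.0746). Over all genes, the 1288 Resilient calls became 3412 under voom, 2184 with only the groups compared and 2551 without the 4 libraries, and the 4621 Susceptible calls became 915 with only the groups compared, 2123 without D2 Susceptible replicates 1 and 2 and 2163 without the 4. The causes were not tested. Same-numbered libraries did not deviate together (correlations -0.168 to 0.0779 over 75 pairs), and with the replicate number as a block 3 and 5 members were called, as without it, and 1230 and 4173 genes. With the longest transcript in place of merged exons Slc24a3 kept its place in all 6 groups, and Slc8a3 was the fifth in 6 groups rather than 4. By Spearman's rho, 2 of the 5 genes most like Slc24a3 were among the top 5. Depth limits Slc24a5 and Slc8b1 most.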
